A study of Homo sapiens with 6 samples.

Results

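MTOR, RPTOR, RICTOR, TSC1 and TSC2 encode the kinase mTOR, the defining subunits of its complexes and the pair of proteins that restrain it. This account follows 5-hydroxymethylcytosine (5hmC) and 5-methylcytosine (5mC) along these 5 genes. Their members are the peak regions of 4 deposited lists on hg19 that overlapped a gene with 5 kb added at both ends. The spans were chr1:11166588-11322608 for MTOR, chr17:78518625-78940173 for RPTOR, chr5:38938021-39074510 for RICTOR, chr9:135766735-135820020 for TSC1 and chr16:2097990-2138713 for TSC2. They held 633 of 593403 peak regions on chromosomes 1 to 22 and X, or 0.107%. By list, 146 of 191314 5hmC regions of high glucose, 169 of 209999 5hmC regions of normal glucose, 163 of 100220 5mC regions of high glucose and 155 of 91870 5mC regions of normal glucose were members. Of these, 9, 11, 7 and 5 lay in the added 5 kb alone, and a further 4, 5, 7 and 6 lay between 5 and 10 kb from a gene and were left out.

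All samples were A2058, a human melanoma cell line, made to overexpress wild-type TET2 (labelled TET2WT), and were grown in high or normal glucose for 7 days. TET2 is the enzyme that oxidises 5mC to 5hmC, and no group without its overexpression was analysed here. 5hmC was enriched with an antibody (hMeDIP-seq) and 5mC with another (MeDIP-seq), and each combination of mark and glucose level was a single library, beside an input library for each glucose level. With 1 library per group, no difference has a replicate check and no p-value is given between glucose levels. Intervals below cover counting error only, and neighbouring regions are not replicates. The reads carry no molecular identifiers and the treatment of duplicate reads is not given, so copies of a molecule may count more than once. The read numbers worked out from the lists, for an assumed genome of 2700 Mb, were 28 M (mega) and 27.5 M for 5hmC and 6.14 M and 5.11 M for 5mC in high and normal glucose. By these estimates each 5mC list rests on fewer reads than either 5hmC list. The files hold no expression values, so neither the cell type nor the activity of these genes could be checked.

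mTOR is a serine/threonine kinase that couples nutrients, growth factors and energy to cell growth. Bound to Raptor, the product of RPTOR, it forms mTORC1, which phosphorylates S6 kinase and the 4E-BP translation repressors. Bound to Rictor, the product of RICTOR, it forms mTORC2, which phosphorylates AKT. TSC1 (hamartin) and TSC2 (tuberin) form a complex in which TSC2 switches off the small GTPase RHEB, the direct activator of mTORC1, and TSC1 stabilises TSC2. Low energy restrains mTORC1 through AMPK, which phosphorylates TSC2 and Raptor. Methylated cytosines in mammals lie mostly at CpG sites, and promoters rich in CpG are usually free of 5mC while gene bodies often carry it.

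The promoter sequences are shown first because the hg19 start of every gene lay outside all peak regions of both marks. They are the 250 bases before the start in RefSeq, on GRCh38.p14, 5′ to 3′ on the strand of the gene, with each CpG in capitals. They were not placed on hg19, where the peaks lie. RefSeq gave TSC2 more than 1 start, and the more upstream was taken.

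MTOR: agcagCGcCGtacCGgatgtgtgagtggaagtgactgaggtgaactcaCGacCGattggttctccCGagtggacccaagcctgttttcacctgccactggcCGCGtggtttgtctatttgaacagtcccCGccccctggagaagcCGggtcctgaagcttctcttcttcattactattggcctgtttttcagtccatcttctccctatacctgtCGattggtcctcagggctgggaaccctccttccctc
RPTOR: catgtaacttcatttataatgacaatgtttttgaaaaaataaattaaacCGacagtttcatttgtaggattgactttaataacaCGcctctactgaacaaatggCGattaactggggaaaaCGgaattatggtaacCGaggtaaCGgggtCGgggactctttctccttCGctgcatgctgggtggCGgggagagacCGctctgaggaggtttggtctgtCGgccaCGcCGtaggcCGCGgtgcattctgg
RICTOR: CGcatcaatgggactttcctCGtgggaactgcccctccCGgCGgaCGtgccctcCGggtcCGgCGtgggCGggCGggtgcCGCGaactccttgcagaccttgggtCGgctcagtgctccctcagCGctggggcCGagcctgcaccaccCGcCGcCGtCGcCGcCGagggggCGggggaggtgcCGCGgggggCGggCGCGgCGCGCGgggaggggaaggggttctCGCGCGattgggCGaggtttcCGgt
TSC1: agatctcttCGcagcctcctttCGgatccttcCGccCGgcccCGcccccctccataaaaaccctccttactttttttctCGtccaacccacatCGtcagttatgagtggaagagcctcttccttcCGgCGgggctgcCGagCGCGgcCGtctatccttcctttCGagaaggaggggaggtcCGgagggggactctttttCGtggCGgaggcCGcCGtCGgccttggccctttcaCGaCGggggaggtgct
TSC2: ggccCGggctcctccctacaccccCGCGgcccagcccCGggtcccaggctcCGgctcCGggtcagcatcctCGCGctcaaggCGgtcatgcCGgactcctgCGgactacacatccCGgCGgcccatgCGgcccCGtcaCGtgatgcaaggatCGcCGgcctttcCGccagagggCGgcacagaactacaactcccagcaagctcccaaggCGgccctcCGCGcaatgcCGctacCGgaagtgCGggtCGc

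These stretches are chr1:11262552-11262801 (minus strand), chr17:80544588-80544837 (plus), chr5:39074400-39074649 (minus), chr9:132944617-132944866 (minus) and chr16:2047735-2047984 (plus) in that order. The RICTOR promoter held 35 CpG in 250 bases, TSC2 held 27, TSC1 22, RPTOR 15 and MTOR 11. The median of 35116 RefSeq promoters was 11, and 5.80% of them held at least as many as RICTOR and 50.3% at least as many as MTOR. GC content ran from 47.2% in RPTOR to 76.0% in RICTOR. CpG density before the RefSeq start thus differed widely between the genes. The RefSeq start need not be the hg19 start used for the peaks: RefSeq gives TSC1 54030 bp and TSC2 41507 bp, against spans of 53286 and 40724 bp here.

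In no list did a region of either mark cover the start of any of the 5 genes. A start outside all regions is the usual case for the genome, since the lists covered 3.79% and 4.11% (5hmC) and 2.35% and 2.18% (5mC) of the chromosomes up to their last peak. In TSC2, by contrast, the start was bare in a gene where 5mC regions covered 73.9% and 73.7% of the gene in high and normal glucose. There the nearest regions of any list lay 1.40 kb upstream and 1.67 kb downstream of the start, which left 3.07 kb free of both marks. Around the RPTOR start 9.79 kb were free of both marks, with the first 5mC region of the gene 11.89 kb downstream in high and 15.28 kb downstream in normal glucose. The MTOR start had a 5mC region close by in both lists, from 0.97 to 1.35 kb downstream in high and from 0.97 to 1.37 kb in normal glucose. The nearest 5mC region lay 3.74 kb from the RICTOR start in high and 3.78 kb in normal glucose. For TSC1 it lay 3.82 kb away in high glucose, in a region without a normal-glucose partner, and 22.44 kb away in normal glucose.

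Short 5hmC regions within 2 kb of a start were listed in 1 glucose level only. In MTOR a 296 bp region of the high-glucose list lay 0.43 to 0.72 kb downstream of the start, with 16 fragments at its summit where 3.03 were expected. In TSC1 a 375 bp region of high glucose lay 0.36 to 0.73 kb downstream, with 16 fragments where 4.16 were expected. In RICTOR a 292 bp region of high glucose lay from -0.85 to -0.56 kb, upstream of the start, with 14 fragments where 5.00 were expected. By the authors' own -log10 p, which here ranks regions within a list only, all were below the median of their list (7.60, 5.72 and 3.65, against 9.99). In TSC2 the region near the start was of normal glucose, 357 bp long and upstream, from -2.03 to -1.67 kb, with 9 fragments where 2.82 were expected. Its -log10 p was 3.16, against a list median of 8.70. It lay 656 bp from a high-glucose 5hmC region and overlapped 5mC regions of both lists. Over the whole high-glucose 5hmC list 24.1% of regions had no normal-glucose partner, and in the normal-glucose list 31.2% had no high-glucose partner. RPTOR had no region of either mark within 2 kb of its start.

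The 5 genes differed far more from each other than between glucose levels. TSC2 was the gene most covered, with 47.5% and 57.1% of its span in 5hmC regions and 73.9% and 73.7% in 5mC regions in high and normal glucose. RPTOR came next, with 18.2% and 24.4% for 5hmC and 34.7% and 32.6% for 5mC. MTOR was covered to 3.51% and 2.88% by 5hmC and to 6.48% and 5.54% by 5mC. TSC1 had 4.18% and 1.18% for 5hmC and 2.42% and 3.92% for 5mC. RICTOR had 1.6% and 0.851% for 5hmC and 1.27% and 1.3% for 5mC. TSC2 and RPTOR thus ranked first and second for both marks at both glucose levels, while the order of MTOR and TSC1 for 5hmC depended on the glucose level. The inhibitory partners TSC1 and TSC2 lay far apart in this range, as did the complex subunits RPTOR and RICTOR.

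**Figure D1:**
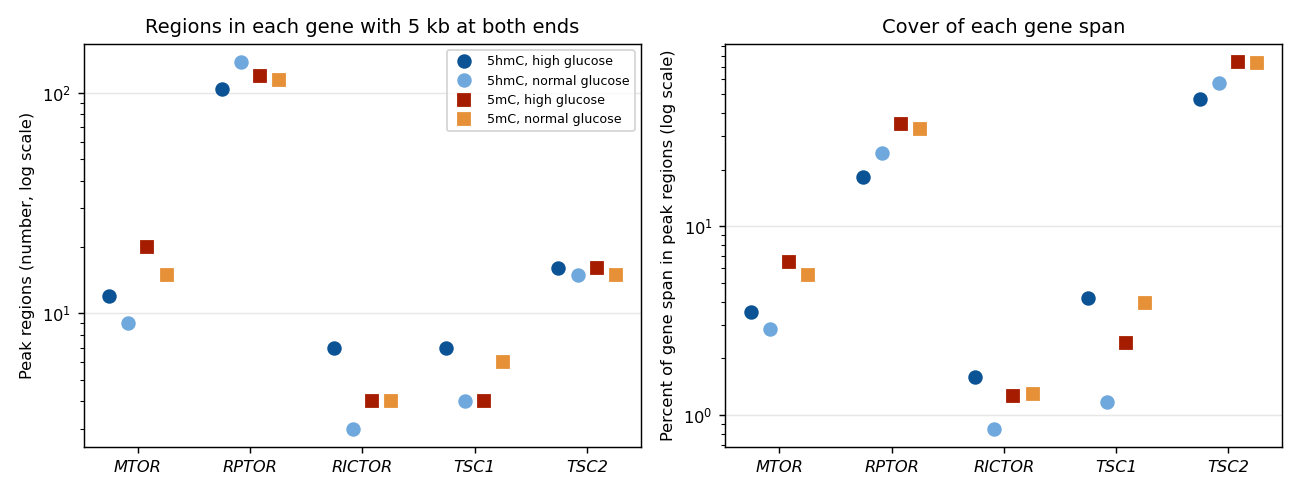
Number of peak regions in each gene with 5 kb at both ends (left) and percent of the gene span inside peak regions (right), both on log axes, with 1 point per library (circles 5hmC, squares 5mC). RPTOR had the most regions, 104 to 138 per list, while TSC2 had the highest cover, 47.5% to 73.9%.

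Set against the genome cut into pieces as long as each gene, TSC2 and RPTOR lay near the top. Here and below, only pieces with a peak region in at least 1 list were counted, so the shares are not of all pieces. Of 60929 pieces of the length of TSC2, 13 had at least its 5mC cover in high and 11 in normal glucose, and 59 and 67 had at least its 5hmC cover. Of 6712 pieces of the length of RPTOR, 22 and 24 had at least its 5mC cover and 109 and 73 its 5hmC cover. MTOR had more 5mC than 89.8% and 88.6% of pieces of its length, but its 5hmC cover was close to the middle (60.6% and 53.6% of pieces lower). RICTOR was above 31.4% of pieces for 5hmC in high and 18.3% in normal glucose.

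The high covers of RPTOR and TSC2 were shared in part by the sequence around them. The 500 kb upstream of RPTOR had a 5mC cover of 25.1% and 24.0% and the 500 kb downstream 45.4% and 43.7% in high and normal glucose, so that the gene lay between its sides. TSC2 exceeded both of its sides, which had 5mC covers of 33.7% and 32.2% upstream and 22.6% and 21.7% downstream. TSC1 and RICTOR carried less 5hmC than either side. For RICTOR the sides had 3.47% and 3.68% upstream and 5.19% and 6.59% downstream. For TSC1 they had 11.5% and 13.5% upstream and 7.11% and 8.52% downstream. MTOR also had less 5hmC than its sides (9.55% upstream and 14.3% downstream in high glucose). Its 5mC cover was above that of its upstream side (3.62% and 3.14%) and below that of its downstream side (14.0% and 14.3%).

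Between glucose levels, 5hmC regions were fewer in high glucose in RPTOR and not in the other genes. In RPTOR the high-glucose list had 104 5hmC regions and the normal-glucose list 138, which gives a ratio of 0.754 (exact binomial 95% interval 0.579 to 0.979), and the covered length was 77.6 against 106 kb. The other 4 genes together had 42 against 31, a ratio of 1.35 (0.832 to 2.23), and their covered lengths were 37.6 and 38.2 kb. Single counts were 12 against 9 in MTOR, 7 against 3 in RICTOR, 7 against 4 in TSC1 and 16 against 15 in TSC2, with intervals that all include 1. Over the 5 genes the ratio was 0.864 (0.688 to 1.08), and over chromosomes 1 to 22 and X it was 0.911. The interval of RPTOR includes the genome-wide ratio. These intervals, and those of the 5mC ratios below, treat the counts of the glucose levels as independent. In RPTOR, however, 92 of the 104 and 87 of the 138 5hmC regions overlapped a region of the other list. The intervals do not allow for this pairing. Among the stronger regions alone (-log10 p from 10 up) RPTOR had 46 against 50, or a high-over-normal ratio of 0.920, where the whole lists had 1.12. Such a limit depends on the depth and background of each library. With matched background as well, the ratio was 0.800 in RPTOR and 0.941 in the whole lists.

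The count and the length of 5hmC did not point the same way in TSC2. Its regions numbered 16 in high and 15 in normal glucose, yet they covered 26.0 and 30.6 kb of the gene with its added ends. In RPTOR and TSC2 the sequence beside the gene also had less 5hmC cover in high glucose. The ratio of covered length, high over normal glucose, was 0.745 in the RPTOR span, 0.878 in the 500 kb upstream and 0.713 in the 500 kb downstream. In TSC2 it was 0.833, with 0.797 and 0.851 at its sides. Over the whole lists this ratio was 0.922. MTOR, RICTOR and TSC1 differed from their sides: ratios were 1.22, 1.88 and 3.55 in the genes, and 0.951 and 0.839, 0.941 and 0.787, and 0.851 and 0.835 beside them. These 3 ratios rest on few regions. Of the peak-bearing pieces as long as RPTOR, 50.1% had the smaller 5hmC cover in high glucose. This background was 49.4% for pieces as long as MTOR, 49.6% for RICTOR, 48.1% for TSC1 and 47.5% for TSC2. Pieces with equal cover at both glucose levels are outside these shares. The difference in RPTOR, high minus normal glucose, was -6.22 percentage points, and 48 of 6712 pieces of its length had a difference as low or lower. In TSC2 it was -9.53 points, with 775 of 60929 pieces as low or lower. A lower cover in high glucose cannot differ by more than the normal-glucose cover. That was 2.71% for the median piece as long as RPTOR and 2.75% for TSC2, so most pieces could not reach such differences. The other genes differed in the opposite direction. In TSC1 the difference was 3.00 points, with 857 of 48494 pieces as high or higher. It was 0.629 points in MTOR (3117 of 17807 pieces) and 0.750 in RICTOR (3044 of 20264).

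For 5mC the count ratio of RPTOR was near 1. RPTOR had 119 regions against 115 in normal glucose (ratio 1.03, interval 0.794 to 1.35), MTOR 20 and 15, RICTOR 4 and 4, TSC1 4 and 6, and TSC2 16 and 15. The total was 163 against 155, a ratio of 1.05 (0.839 to 1.32), beside 1.09 over the whole lists. The high-glucose 5mC library was the deeper of the pair by the estimate above, and with equal numbers of top peaks the ratio over the 5 genes was 1.0. With matched background and a -log10 p from 10 up it was 0.953, as in the whole lists, so that its direction turned. By cover of the span, RPTOR and MTOR had more 5mC in high glucose, and RICTOR and TSC1 had less. TSC2 had 73.9% against 73.7% of its span but 69.3% against 71.6% with the added ends. The RPTOR difference was 2.15 percentage points, and 44 of 6712 pieces of its length had a difference as high or higher. Only 22 and 24 of these pieces had at least its 5mC cover, and a difference in points can be larger where cover is higher. As a ratio of covered length, high over normal glucose, RPTOR had 1.07, beside 1.05 and 1.04 at its sides and 1.08 over the whole lists. The smaller 5mC cover was that of high glucose in 28.1% of peak-bearing pieces as long as MTOR. It was so in 28.2% for RPTOR, 27.9% for RICTOR, 24.8% for TSC1 and 23.7% for TSC2. Pieces with equal cover at both glucose levels are outside these shares, so the remaining pieces did not all have more 5mC in high glucose.

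Most regions of RPTOR and TSC2 were found at both glucose levels. In RPTOR 12 of 104 5hmC regions of high glucose had no normal-glucose partner, or 11.5% (Wilson 95% interval 6.72 to 19.1), where the whole list had 24.1%. In the other direction, 51 of 138 normal-glucose regions of RPTOR had no partner in high glucose, or 37.0% (29.4 to 45.3), where the whole list had 31.2%. The genome-wide share lies inside the second interval and outside the first. Among the stronger regions (-log10 p from 10 up) the first share was 23.9% in RPTOR and 35.3% in the whole list. It was 22.1% against 27.5% with equal numbers of top peaks, 25% against 29.6% with matched background and that p limit, and 34.6% against 37.0% where a partner had to share 50% of both regions. The RPTOR share was thus nearer to that of the genome under each of these alternatives than the 11.5% alone shows. TSC2 had 1 of 16 and 2 of 15 such regions. MTOR had 6 of 12 and 3 of 9, RICTOR 4 of 7 and 0 of 3, and TSC1 3 of 7 and 0 of 4. For these genes every interval is wide, reaching from 25.4% to 74.6% for the high-glucose list in MTOR. A partner by 1 bp is also likelier where cover is high. 5hmC covered 47.5% and 57.1% of TSC2 and 18.2% and 24.4% of RPTOR in high and normal glucose. The part of cover in these shares was not tested.

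For 5mC the shares without a partner were 20.2% (14.8 to 27.1) of high-glucose and 12.9% (8.51 to 19.1) of normal-glucose regions over the 5 genes. The whole lists had 28.3% and 21.5%. RPTOR had 21 of 119 and 12 of 115, TSC2 1 of 16 and 0 of 15, MTOR 8 of 20 and 3 of 15, RICTOR 2 of 4 in both lists, and TSC1 1 of 4 and 3 of 6. RPTOR and TSC2 had smaller shares than the genome in both lists. However, 5mC covered 73.9% and 73.7% of TSC2 and 34.7% and 32.6% of RPTOR. A partner by 1 bp is likelier at such cover, and the part of cover in these shares was not tested. Without RPTOR the other 4 genes had 27.3% and 20.0%, close to the whole lists. Unpartnered 5mC regions were weaker than shared ones. Over the 5 genes the median -log10 p was 6.78 for unpartnered and 22.9 for shared 5mC regions of high glucose, and 7.15 and 19.9 in normal glucose. The whole lists showed this too, with 6.78 and 14.2 in high and 6.53 and 12.7 in normal glucose.

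**Figure D2:**
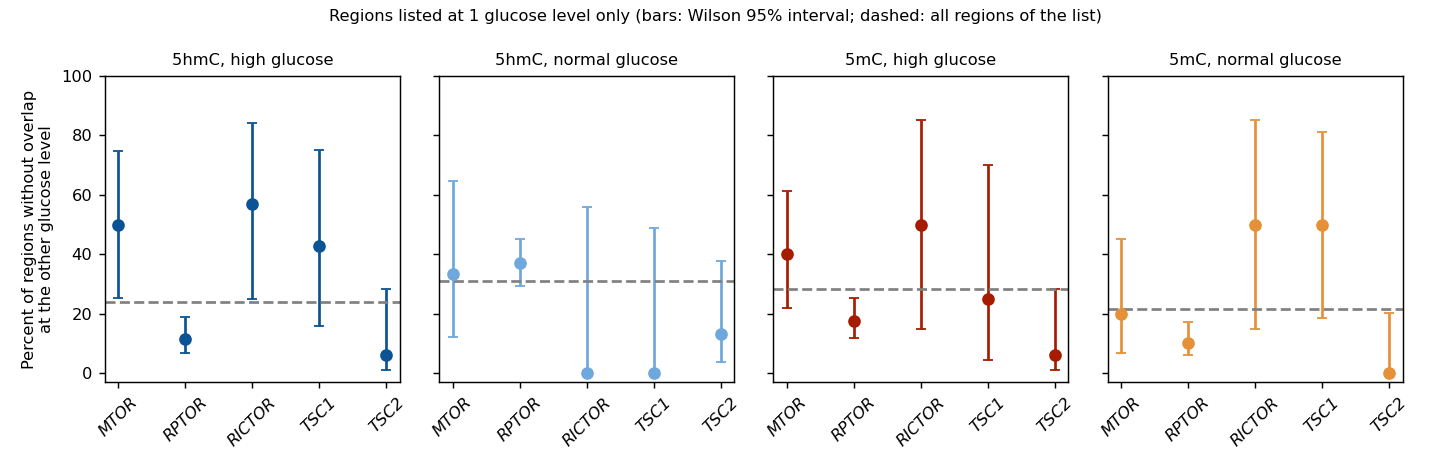
Percent of the regions of each gene that had no overlapping region of the same mark at the other glucose level, 1 panel per list, with Wilson 95% intervals as bars and the share of the whole list as a dashed line. RPTOR lay below the line for high-glucose 5hmC (11.5% against 24.1%) and above it for normal-glucose 5hmC (37.0% against 31.2%), and the intervals of the smaller genes are wide. Under stricter settings the first of these came nearer to its line (22.1% against 27.5% with equal numbers of top peaks). The second stayed above its own (36.1% against 28.2% in that setting).

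The marks met in a larger share of regions in RPTOR and TSC2 than in the other genes. In TSC2 12 of 16 5mC regions of high glucose and 13 of 15 of normal glucose overlapped a 5hmC region of the same glucose level, where the whole lists had 32.2% and 39.7%. In RPTOR these were 58 of 119, or 48.7% (39.9 to 57.6), and 72 of 115, or 62.6% (53.5 to 70.9). Among the stronger regions of both marks (-log10 p from 10 up) RPTOR had 25.3% in high and 38.3% in normal glucose, where the whole lists had 23.9% and 27.3%, so that its high-glucose share was then close to that of the genome. Counted from the other mark, 14 of 16 and 15 of 15 5hmC regions of TSC2 and 67 of 104 and 80 of 138 of RPTOR overlapped 5mC, where the whole lists had 17.6% and 18.0%. However, 5mC covered 73.9% and 73.7% of TSC2 and 34.7% and 32.6% of RPTOR, against 2.35% and 2.18% of the chromosomes. An overlap of 1 bp is likelier at such cover, and the part of cover in these shares was not tested. In MTOR 2 of 20 and 2 of 15 5mC regions overlapped 5hmC, in TSC1 1 of 4 and 0 of 6, and in RICTOR 0 of 4 in both lists. Over the 5 genes the share was 44.8% (37.4 to 52.5) in high and 56.1% (48.3 to 63.7) in normal glucose, lower in high glucose as in the whole lists, with intervals that overlap.

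Measured by length, 30.7% of the 5mC-covered bases of RPTOR also lay in 5hmC regions in high glucose and 39.0% in normal glucose. For TSC2 these were 55.5% and 69.8%, and for MTOR 8.60% and 15.1%. Over the whole lists they were 25.2% and 32.0%. RICTOR and the span of TSC1 had no base in regions of both marks at the same glucose level. In sum, 15.2 kb or 37.3% of TSC2 lay in regions of all 4 lists, compared with 32.8 kb or 7.77% of RPTOR and 0.345 kb or 0.221% of MTOR. Of the high-glucose 5hmC regions, 13 of 16 in TSC2, 51 of 104 in RPTOR and 1 of 12 in MTOR met a region of each of the other 3 lists, where the whole list had 12.8%. RICTOR and TSC1 had 0 of 7 each. From the other lists, 13 of 15 (5hmC, normal), 11 of 16 (5mC, high) and 12 of 15 (5mC, normal) did so in TSC2. In RPTOR these were 49 of 138, 46 of 119 and 48 of 115, against 11.6%, 23.6% and 25.8% of those lists. The part that the high cover of TSC2 and RPTOR has in these shares was likewise not tested.

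MTOR, the kinase, spans 156021 bp on the minus strand of chromosome 1, and the gene ANGPTL7 lies within it in RefSeq. Its strongest 5hmC region by -log10 p was the same locus at both glucose levels, chr1:11310441-11311388 in high and chr1:11310464-11311380 in normal glucose, with summits 11.68 and 11.65 kb past the start. The summit held 52 fragments in high glucose (exact Poisson 95% interval 38.8 to 68.2) where 6.08 were expected, and 38 in normal glucose (26.9 to 52.2) where 3.16 were expected. The fold enrichments in the authors' lists, 7.49 and 9.37, are each relative to the background of their own library. No 5mC region of the same glucose level overlapped it. Here and for the other genes, the fragment intervals do not allow for the choice of the summit or of the strongest region. They may therefore lie too high.

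The strongest 5mC region of MTOR lay near the far end of the gene, at chr1:11181809-11182459 in high and chr1:11181814-11182458 in normal glucose. It held 59 fragments (44.9 to 76.1) in high and 39 (27.7 to 53.3) in normal glucose, where 1.10 and 1.05 were expected. It ranked 4078 of 100220 and 7608 of 91870 regions in its lists, and carried no 5hmC region. The single MTOR locus that appeared in all 4 lists lay 8.50 to 9.75 kb past the start and included the widest 5mC region of the gene (1227 bp, chr1:11312860-11314086, normal glucose). It is next to the strongest 5hmC region. In 3 equal parts of the gene, 5mC cover was 8.95%, 3.69% and 6.80% in high and 6.51%, 3.79% and 6.32% in normal glucose from start to end, lowest in the middle in both lists. The strongest 5hmC region of MTOR without a partner, chr1:11191054-11191516 of high glucose, held 26 fragments where 4.81 were expected and overlapped a 5mC region.

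RPTOR, the mTORC1 subunit that presents substrates to the kinase, spans 421549 bp on the plus strand of chromosome 17. 5mC was denser toward the end, with a step. In 10 equal parts its cover was 7.06% in high and 8.74% in normal glucose in the first, lay between 14.4% and 29.4% from the second to the sixth, and was 53.1% and 45.6% in the seventh. It lay between 52.6% and 59.1% in the last 3 parts. 5hmC followed another course. In high glucose it was 9.60% in the first part, reached 31.9% in the eighth and was 14.4% in the last. In normal glucose the same parts had 15.6%, 37.4% and 19.1%. In each of the 10 parts 5hmC cover was lower in high than in normal glucose, with the smallest gap in the third (22% against 23.2%) and wider ones in the fifth (16.2% against 25.9%) and ninth (23.7% against 34%). 5mC cover was lower in high glucose in the first 3 parts and higher in the last 7. Neighbouring parts share 1 library and are not independent.

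**Figure D3:**
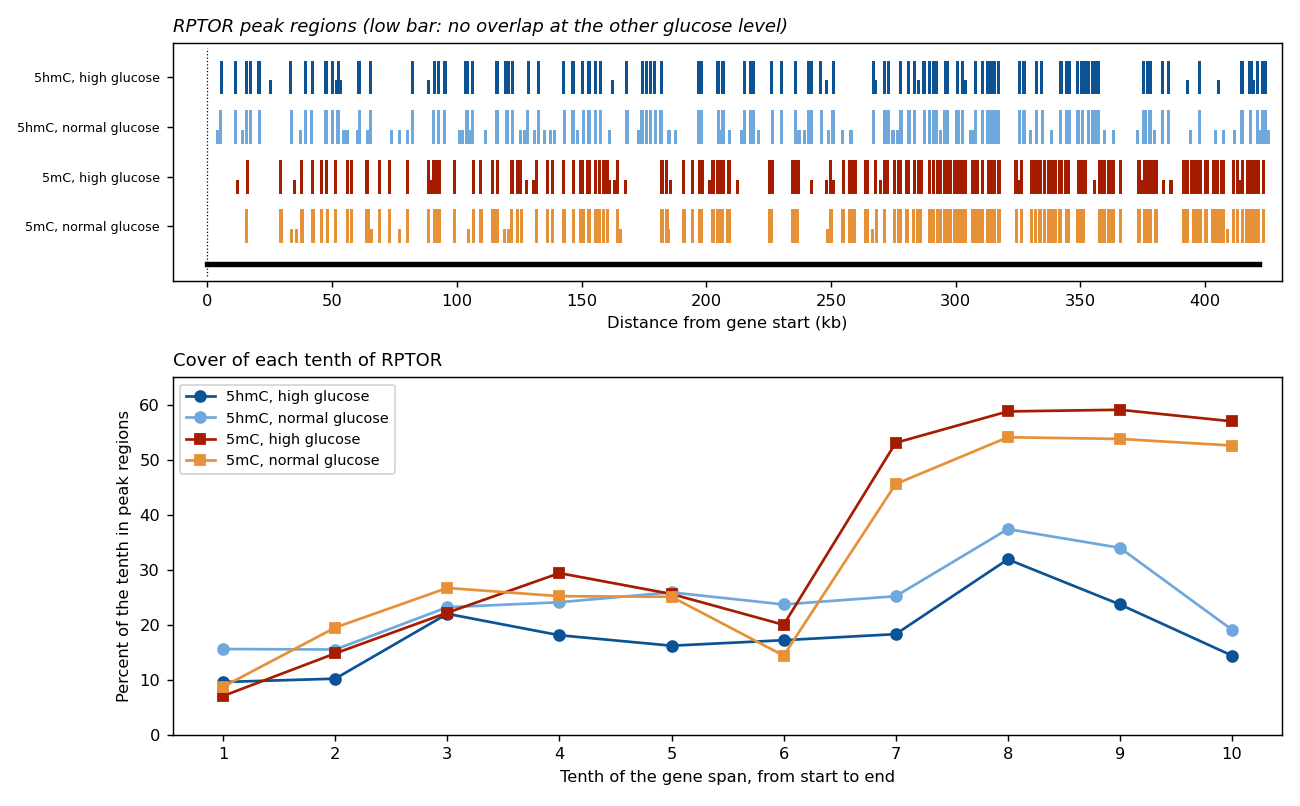
Top, RPTOR peak regions of the 4 lists by distance from the gene start in kb (full-height bars overlap a region of the same mark at the other glucose level, low bars do not; very short regions are widened to stay visible; black line, gene span). Bottom, percent of each of 10 equal parts of the gene inside peak regions: 5mC went from 20.0% and 14.4% in the sixth part to 53.1% and 45.6% in the seventh in high and normal glucose, and 5hmC was lower in high glucose in all 10.

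The strongest 5hmC region of RPTOR lay 385.65 kb past the start, at chr17:78903629-78904533 in high and chr17:78903655-78904504 in normal glucose. It held 89 fragments (71.5 to 110) where 5.83 were expected in high glucose, and 70 (54.6 to 88.4) where 3.43 were expected in normal glucose. It was the strongest 5hmC region of all 5 genes, at rank 655 of 191314 and 218 of 209999, and overlapped no 5mC region of the same glucose level. The strongest 5hmC of this 5mC-rich end thus lay between its 5mC regions. The strongest 5mC region, chr17:78848294-78853316 in high glucose, was 5023 bp long and held 121 fragments (100 to 145) where 0.913 were expected. Its partner in normal glucose, chr17:78848324-78849749, was 1426 bp long and held 83 (66.1 to 103) where 0.737 were expected. Both overlapped 5hmC. The widest regions of RPTOR were a 5hmC region of 5610 bp at chr17:78830977-78836586 and a 5mC region of 6121 bp at chr17:78934743-78940863, both of normal glucose. The latter crosses the end of the gene.

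The 51 RPTOR 5hmC regions listed in normal glucose alone were weaker than its 87 shared ones, with a median -log10 p of 6.25 against 10.6 and a median width of 404 against 747 bp. The whole list had the same pattern, with 6.31 against 10.6 and 344 against 508 bp. Of the 51, 4 had a -log10 p of at least 10, as had 7590 of 65554 such regions in the whole list. The strongest was chr17:78755638-78756065, with 26 fragments where 3.16 were expected, 663 bp from the nearest high-glucose region. A 5mC region of either list overlapped 30 of the 51, or 58.8%, against 17.7% of all 5hmC regions of normal glucose alone. It overlapped 60 of the 87 shared regions, or 69.0%, against 22.7% over the whole list. 5mC covered 34.7% and 32.6% of the gene, and its part in these shares was not tested. Of the 12 RPTOR regions of high glucose alone, 9 met 5mC, against 10.4% of such regions in the genome. The strongest of these 12, chr17:78786358-78786716, held 17 fragments where 3.26 were expected and lay 507 bp from a normal-glucose region.

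RICTOR, the mTORC2 subunit, spans 136490 bp on the minus strand of chromosome 5 and had the lowest number of regions in each list, level with TSC1 in the high-glucose lists of both marks. Its 5hmC was listed at 3 loci at both glucose levels. The strongest, chr5:39016224-39016762 in high and chr5:39016326-39016797 in normal glucose, lay 58.03 and 57.97 kb past the start. It held 46 fragments (33.7 to 61.4) in high glucose where 5.11 were expected, and 29 (19.4 to 41.6) in normal glucose where 3.89 were expected. The high-glucose list had 4 more loci, the strongest at chr5:39055222-39055550, with 27 fragments where 4.16 were expected and no normal-glucose region within 11992 bp. 5mC was shared at 2 loci, 3.93 and 20.51 kb past the start by their high-glucose summits. The stronger in high glucose, chr5:39053695-39054318, held 19 fragments (11.4 to 29.7) where 0.737 were expected, and its normal-glucose partner 17 (9.90 to 27.2) where 0.754 were expected. In normal glucose the strongest 5mC region was the other shared locus, chr5:39070326-39070732, with 17 fragments where 0.615 were expected. In 3 equal parts of the gene, the last held no 5mC region in either list.

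TSC1, which stabilises TSC2, spans 53286 bp on the minus strand of chromosome 9. The genes SPACA9 and GFI1B lie within 5 kb of it in RefSeq, so regions in the added ends need not belong to TSC1. Within the TSC1 span the marks lay toward different ends. In 3 equal parts of the gene, 5hmC covered 10.6% of the first in high and 3.54% in normal glucose and 5mC none of it. 5mC covered 4.35% and 6.67% of the last part and 5hmC none of it. The 5hmC loci shared by the glucose levels within the gene lay 8.78 and 12.21 kb past the start by their high-glucose summits, and the latter was the strongest of normal glucose, with 20 fragments where 3.41 were expected. The strongest 5hmC region of high glucose lay in the added 5 kb upstream, at chr9:135824136-135824902, with 29 fragments (19.4 to 41.6) where 3.40 were expected. Its normal-glucose partner held 15 (8.40 to 24.7) where 3.89 were expected. A 5mC region of high glucose alone overlapped it there, with 10 fragments where 0.913 were expected. The strongest 5mC region, chr9:135763471-135764398 in high and chr9:135763416-135764519 in normal glucose, lay past the end of the gene and held 34 (23.5 to 47.5) and 33 (22.7 to 46.3) fragments where 1.36 and 0.873 were expected. The widest 5hmC region of TSC1, chr9:135761088-135761952 of high glucose, was 865 bp long, had a normal-glucose partner and also lay past the end, beside this 5mC region. Normal glucose alone had a further 3 5mC regions, between shared loci, the strongest at chr9:135781039-135781416 with 13 fragments where 1.57 were expected.

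**Figure D4:**
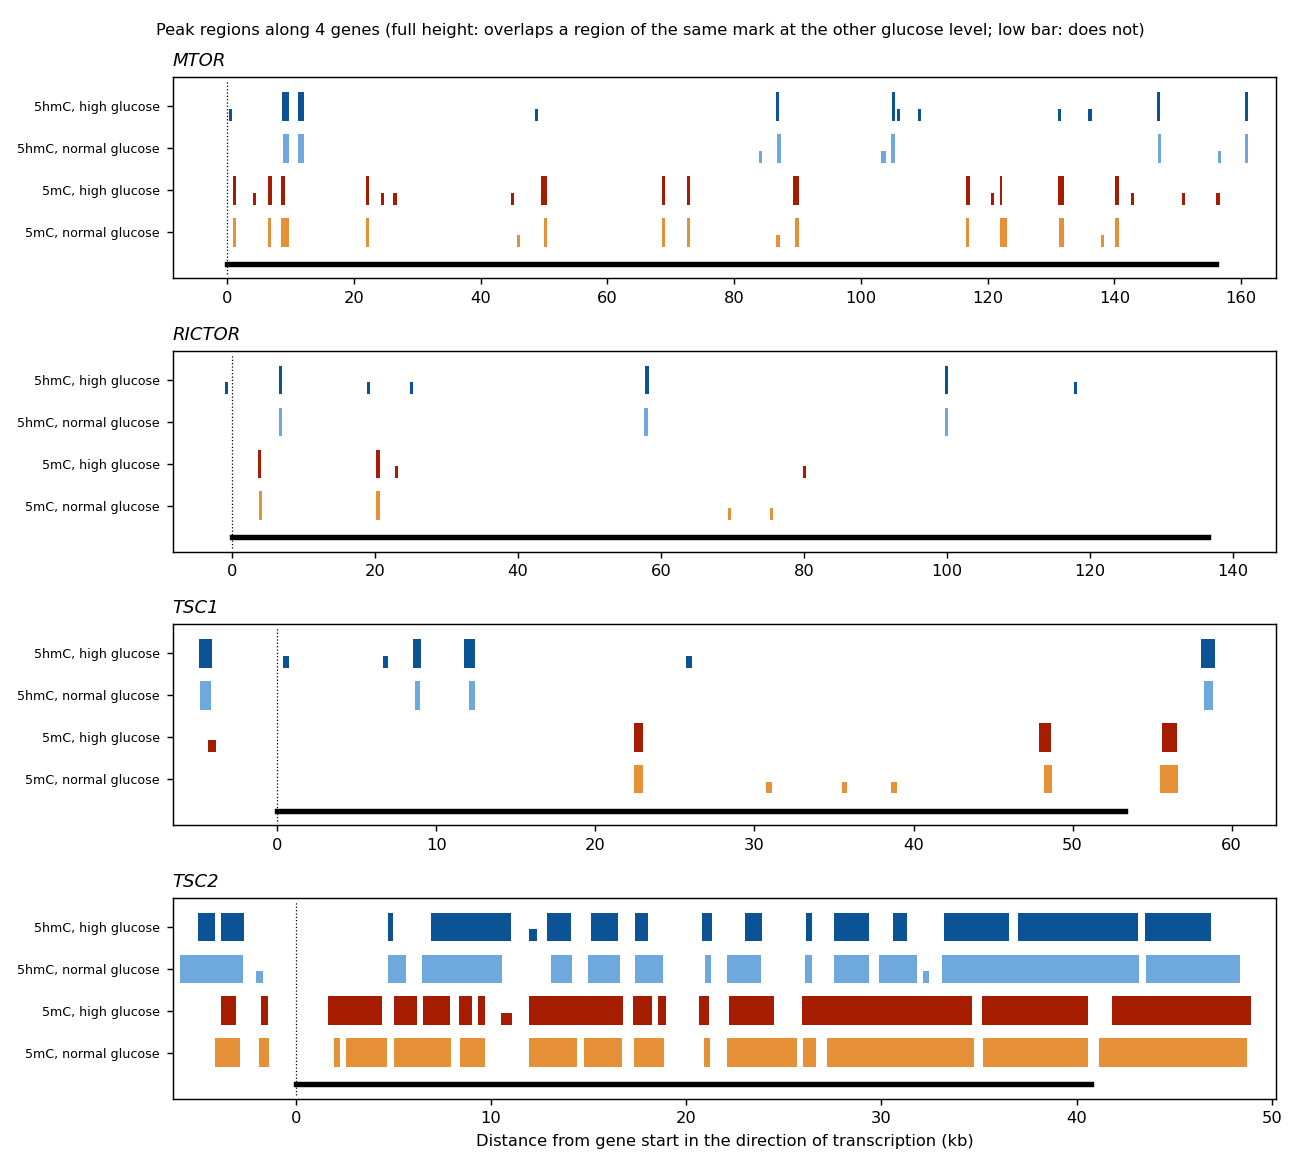
Peak regions of the 4 lists along MTOR, RICTOR, TSC1 and TSC2 by distance from the gene start in kb, in the direction of transcription (black line, gene span; dotted line, start; full-height bars overlap a region of the same mark at the other glucose level, low bars do not; very short regions are widened to stay visible). RICTOR has 3 to 7 regions per list, whereas 5mC regions fill 73.9% and 73.7% of TSC2, with 3.07 kb around its start free of both marks.

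TSC2, the subunit that acts on RHEB, spans 40724 bp on the plus strand of chromosome 16, between NTHL1 upstream and PKD1 downstream in RefSeq. The added 5 kb reach into both neighbours, and 3 regions of each list lay in these ends alone. PKD1 has near-identical copies elsewhere on the chromosome, and how reads with several matching places were handled is not given in the sources used here. Within the gene both marks were densest toward the end. In the last of 3 equal parts 5mC covered 95.4% in high and 95.1% in normal glucose, and 5hmC 70.4% and 86.1%. In the first part 5mC covered 63.0% and 60.5% and 5hmC 40.7% and 40.5%.

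The widest 5hmC region, chr16:2131099-2141208 of normal glucose, was 10110 bp long, ranked 22 by width among 209999 and ran past the end of the gene. It was also the strongest 5hmC region of TSC2 in normal glucose, with 40 fragments where 3.31 were expected. The widest 5mC region, chr16:2123940-2132657 of high glucose, was 8718 bp long and ranked 46 among 100220. It held 76 fragments (59.9 to 95.1) at its summit where 1.46 were expected, and the strongest overlapping region of normal glucose, chr16:2125197-2132725, held 56 (42.3 to 72.7) where 0.873 were expected. The strongest 5mC region of TSC2 in normal glucose, chr16:2139158-2146741, lay wholly past the end of the gene. It was 7584 bp long and held 56 fragments where 0.737 were expected. The strongest 5hmC region of high glucose, chr16:2120980-2121863, held 37 fragments (26.1 to 51.0) where 4.38 were expected, and its normal-glucose partner 32 (21.9 to 45.2) where 4.62 were expected. The typical TSC2 region was also wide. The median high-glucose 5hmC width was 1029 bp against 464 bp over the list, and the median -log10 p was 12.6 against 9.99. In normal glucose the width was 1641 against 443 bp, and the -log10 p 9.45 against 8.70.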

How the data were processed

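hMeDIP-seq and MeDIP-seq peak lists of the 4 immunoprecipitated libraries were used, grouped by sample title, and the 2 inputs were not used as samples. Per the submitters' processing notes, the build was hg19, and the tools named, without roles, are bedtools 2.17.0, SAMtools 0.1.18, Bowtie 1.0.0 and CASAVA 1.8.2. The peak caller, its settings and how it treated duplicate or multiply matching reads: not given in the sources used here. Per library, the authors deposited 1 list. For each peak the deposited list gives a summit position, the fold enrichment (a ratio) there with p and q, both as -log10 values, and a display score that was not used. No q-value exceeded 0.05. The rows on chromosomes 1 to 22 and X were used (80, 82, 14 and 15 rows left out). Peak names in the lists use Ctrl for high and Low for normal glucose, and the labels were followed.

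Gene spans came from the rule that defines the set, strand, neighbours and promoters from RefSeq (GRCh38.p14), whose coordinates were not mixed with hg19. Regions were called shared at an overlap of at least 1 bp (bedtools 2.31.1 gave the same counts as NumPy 2.4.6 and pandas 2.3.3 under Python 3.11.15). The fragment count t at a summit and the expected count L were solved on the assumption that fold = (t + 1)/(L + 1) and that p is a Poisson tail. A whole t with a misfit under 1% of the step to the next was found for 100.00% of peaks in each list, and the search was tested on simulated data. Reads were estimated from the smallest L, the shortest peak and an assumed genome of 2700 Mb. Intervals are Wilson, exact binomial or exact Poisson at 95% (SciPy 1.17.1).

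The named regions were drawn, per gene, from the strongest region of each list, the strongest without a partner, those within 2 kb of the start, and the widest of each mark. Not every region of these kinds is named. Other regions named were chosen after their values were seen. The members, lists and alternatives were chosen with earlier results of these data known. A list of other genes of the pathway was not used here, since no hg19 annotation came with the files. Values are descriptions of single libraries, and no test across replicates could be made.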

Additional observations from a re-analysis of the deposited data

How the results depend on the processing

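No paired analysis was possible because each group has 1 library. Over the 5 genes, a smaller share of 5mC regions overlapped 5hmC in high than in normal glucose, as reported and under all 8 alternatives that give this share. At a -log10 p from 10 up, it was 28.7% and 37.7%, and 28.1% of high-glucose 5hmC regions had no partner. The whole lists then had 23.9%, 27.3% and 35.3%. With the same number of top peaks per list these shares were 23.9%, 29.7% and 26.7% in the 5 genes. The whole lists had 18.3%, 21.9% and 27.5%. For the shares of 5mC regions with 5hmC, all 4 lists were cut to 91870 regions. For the share without a partner, each 5hmC list held 191314. With matched background and the same p limit the 5 genes had 26.7%, 37.7% and 28.1%, and 12.9% of their high-glucose 5mC regions had no partner. In the whole lists these were 22.3%, 27.3%, 29.6% and 18.8%. With 50% of both regions overlapping, 5mC regions with 5hmC were 16.6% and 22.6% in high and normal glucose. In the same order, 5hmC regions without a partner were 40.4% and 48.5%, and 5mC regions without one 33.1% and 29.7%. The whole lists had 14.2% and 17.3%, 37.0% and 42.6%, and 37.5% and 31.8%. Without RPTOR, chosen after seeing the data, the 5hmC ratio was 1.35, and 5hmC regions without a partner were 33.3% and 16.1%. 5mC regions without a partner were then 27.3% and 20.0%, and 5mC regions with 5hmC 34.1% and 37.5%. In this order the whole lists as reported had 0.911, 24.1% and 31.2%, 28.3% and 21.5%, and 32.2% and 39.7%. The remaining 41 alternative values stayed within the counting interval of the main value. Even so, the 5hmC ratio of the 5 genes was 1.03 at that p limit and 1.01 with the same number of top peaks. In RPTOR alone the 5hmC ratio stayed below 1 in the 7 alternatives that give it, from 0.735 by covered length to 0.920 at that p limit, where the whole lists had 1.12. A low count in RICTOR, TSC1 and MTOR limits what their ratios can show.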
